A study of Mus musculus with 10 samples.

Results

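Accessible sites of 2000 bp or more at promoters were selected from the pooled list of open chromatin in mouse embryo fibroblasts. A site was a member when its width was at least 2000 bp, when it lay on chromosomes 1 to 19, and when it overlapped by at least 1 bp the window of 1 kb on either side of an annotated transcript start. By this rule 1992 of the 25744 promoter sites on these chromosomes were members (7.74%), or 1.29% of all 153924 sites of the list. Members were thus chosen by their width, so that width is a description here and not a result. They are called broad promoter sites below.

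The study measured chromatin accessibility by ATAC-seq in immortalized mouse embryo fibroblasts while ASH2L was being degraded. In ATAC-seq a transposase cuts DNA that is not covered by nucleosomes or other proteins, and stretches with many cuts are called as sites. There were 10 libraries in 5 groups of 2 replicates: untreated cells, which the labels also call WT and which received only solvent according to the methods of the study, and cells treated with dTAG for 30 min, 4 h, 8 h or 24 h. In all groups, the untreated cells included, exon 4 of the endogenous floxed Ash2l gene had been deleted through Cre-ER. A lentiviral fusion of a mutant form of FKBP12, HA tags and human ASH2L, which dTAG directs to degradation, replaced the endogenous protein. The cells were 1 clone (NG3), so differences between clones were not covered. The labels describe the extraction in the words of a ChIP protocol, whereas the methods of the study describe a transposition protocol, and the sites were taken as accessible sites because the list is named so. The list gives positions only, joined over all libraries. It holds no value for a library, a time or a group, so no change after dTAG, no replicate error and no test can be given, and the sequencing depth behind a site is unknown. Intervals below cover the counting of sites or genes only. Sites are not replicates, neighbouring sites can share a gene, and no p-value was computed.

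Promoters are where RNA polymerase II is recruited and where nucleosomes are depleted around the transcription start. In mammals many promoters lie in CpG islands, stretches that kept the CpG dinucleotide that is lost elsewhere when methylated cytosines mutate. ASH2L is a core subunit of the KMT2 complexes, which methylate lysine 4 of histone H3 at promoters, and several of their partners bind unmethylated CpG. Wide zones of open chromatin or of promoter marks are known from genes that define the identity of a cell type.

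The promoter sequence under the widest sites varied considerably. The 250 bases before a RefSeq transcript start (GRCm38.p6, the assembly of the mm10 build) that lies in the site are given for 5 of the widest sites, because these carry the extremes of the selection, with each CpG in capitals and read 5′ to 3′ along the gene. Where RefSeq lists several starts of the gene inside the site, the one that the table lists before the others was taken.
Zmiz1, chr14:25458935-25459184, plus strand: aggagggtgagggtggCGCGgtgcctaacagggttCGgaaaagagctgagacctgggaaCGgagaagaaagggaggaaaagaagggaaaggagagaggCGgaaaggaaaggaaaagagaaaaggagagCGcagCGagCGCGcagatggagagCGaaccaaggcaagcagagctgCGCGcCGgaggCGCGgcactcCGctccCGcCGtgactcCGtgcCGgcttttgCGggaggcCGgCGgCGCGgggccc
Pcdh7, chr5:57717831-57718080, plus strand: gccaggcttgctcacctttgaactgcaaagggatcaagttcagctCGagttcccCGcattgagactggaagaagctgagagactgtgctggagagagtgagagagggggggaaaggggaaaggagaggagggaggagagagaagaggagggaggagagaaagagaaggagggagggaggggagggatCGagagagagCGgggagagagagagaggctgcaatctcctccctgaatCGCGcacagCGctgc
Ubtf, chr11:102319593-102319842, minus strand: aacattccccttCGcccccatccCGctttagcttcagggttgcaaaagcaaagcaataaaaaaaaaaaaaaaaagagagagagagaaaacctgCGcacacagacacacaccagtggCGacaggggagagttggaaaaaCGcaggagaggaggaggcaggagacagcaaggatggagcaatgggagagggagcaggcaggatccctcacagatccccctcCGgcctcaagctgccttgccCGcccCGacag
Ssbp4, chr8:70608315-70608564, minus strand: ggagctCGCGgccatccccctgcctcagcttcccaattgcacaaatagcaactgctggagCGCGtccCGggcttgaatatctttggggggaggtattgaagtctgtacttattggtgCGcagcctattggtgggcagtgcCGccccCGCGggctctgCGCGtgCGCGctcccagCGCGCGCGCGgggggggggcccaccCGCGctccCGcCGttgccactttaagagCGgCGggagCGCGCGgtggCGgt
Fat4, chr3:38886690-38886939, plus strand: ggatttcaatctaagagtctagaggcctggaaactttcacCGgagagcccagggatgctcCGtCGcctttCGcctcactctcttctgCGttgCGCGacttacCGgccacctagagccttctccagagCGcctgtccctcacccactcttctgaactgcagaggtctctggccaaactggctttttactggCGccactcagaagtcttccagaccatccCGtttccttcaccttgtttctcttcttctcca
The counts of CpG in these 250 bases were 25 for Zmiz1, 7 for Pcdh7, 8 for Ubtf, 28 for Ssbp4 and 11 for Fat4. For comparison, 2188 RefSeq promoters overlapped a broad promoter site and had a median of 21 CpG in the same window (quartiles 14 and 30), whereas all 31396 RefSeq promoters of these chromosomes had a median of 6 (quartiles 2 and 16). Of the 2121 protein-coding gene symbols at broad promoter sites, 1498 had such a RefSeq promoter. The CpG counts of the widest sites thus fell on both sides of this median, with 3 of the 5 below the lower quartile. A further sequence is that of Ang, which encodes angiogenin, a secreted ribonuclease, and which lies in one of the widest sites that touch no CpG island.
Ang, chr14:51090827-51091076, plus strand: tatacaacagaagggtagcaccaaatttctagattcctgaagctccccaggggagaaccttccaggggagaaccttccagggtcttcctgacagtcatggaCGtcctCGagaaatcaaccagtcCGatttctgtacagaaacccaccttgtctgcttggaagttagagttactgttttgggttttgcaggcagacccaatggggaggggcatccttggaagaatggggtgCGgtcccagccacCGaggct
It held 5 CpG in 250 bases, close to the counts of Pcdh7 and Ubtf. In the middle 1 kb of its site, the ratio of observed to expected CpG was 0.722. This was the highest value among the 201 broad sites without an island (median 0.337). The sites at Mcat and Tspo and at Gm44734, likewise among the widest without an island, had no entry.

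The 1992 broad promoter sites covered 4.73 Mb. Their median width was 2268 bp (quartiles 2115 and 2528 bp), and 802 of them were narrower than 2200 bp. A width of 3000 bp or more was reached by 122 sites. Just inside the threshold, at 2000 bp, were sites at Arl8a, a lysosomal GTPase, at Lrrc8a, a subunit of a volume-regulated anion channel, and at Myef2, among 8 sites of exactly this width. Just outside, at 1999 bp, were the sites at A930004D18Rik, Phyhd1 and Cbl, the last encoding a ubiquitin ligase for receptor kinases. The nearest members and non-members thus differed in width by 1 bp.

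The 10 widest sites were between 3876 and 4614 bp. The widest, at the transcriptional coactivator Zmiz1 (chr14:25457260-25461873), spanned 4614 bp, contained 7 annotated starts and overlapped 2 CpG islands. At Pcdh7, a protocadherin, 4573 bp were accessible (chr5:57715032-57719604), and at Ubtf, which encodes a factor of RNA polymerase I transcription, 4490 bp with 9 starts (chr11:102316379-102320868). The site at Ssbp4, whose product belongs to a family of single-stranded DNA binding proteins, spanned 4152 bp (chr8:70608094-70612245). The sites at the atypical cadherin Fat4 (chr3:38883934-38887996) and at Brd2 (chr17:34118871-34122933) were both 4063 bp wide. Brd2 encodes a reader of acetylated histones, and its site was covered completely by a CpG island and reached the neighbouring gene H2-DMa. Sites of 3988 bp at the ephrin Efna5 (chr17:62880473-62884460), 3927 bp at the transcriptional repressor Erf (chr7:25248153-25252079), 3915 bp at the kinesin Kif26b (chr1:178527216-178531130) and 3876 bp at Socs2, an inhibitor of cytokine signalling (chr10:95414389-95418264), completed this group. All 10 overlapped at least 1 CpG island.

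Most broad promoter sites overlapped a CpG island, a stretch with a high GC content and a CpG frequency near that predicted from its C and G content. Of the 1992 sites, 1791 overlapped an island (89.9%, 95% Wilson interval 88.5 to 91.2%). Among promoter sites below this width the share rose with each class of width, from 7.42% below 0.5 kb to 19.3% at 0.5 to 1 kb, 62.9% at 1 to 1.5 kb and 82.4% at 1.5 to 2 kb (each class from its lower bound to just under its upper bound). Within the broad sites it was 89.1% at 2 to 2.5 kb and 92.0% at 2500 bp or more. Distal sites of 2000 bp or more, which do not reach into the 1 kb window of any start, overlapped an island in 50 of 579 cases (8.64%, interval 6.61 to 11.2%). Islands were thus more frequent in wider promoter sites but rare at wide sites elsewhere. The share was higher for broad promoter sites than for promoter sites of 1 to 2 kb on each of the 19 chromosomes, with a mean difference of 20.1 ± 3.73 percentage points (SD over chromosomes, n = 19).

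A wider site meets an island more often by position alone, and therefore the sequence was also compared at a fixed width. In the middle 1 kb, the ratio of observed to expected CpG had a median of 0.786 at broad promoter sites (interval 0.774 to 0.798, quartiles 0.629 and 0.906) and of 0.695 at promoter sites of 1 to 2 kb (0.690 to 0.701). In sites under 1000 bp it was 0.248. The median GC content of the same window was 64.0, 59.0 and 48.5%, respectively. Again the broad sites had the higher CpG ratio on all 19 chromosomes. Among the widest sites the ratio was not higher, with 0.793 at 2 to 2.5 kb and 0.763 at 2500 bp or more (overlapping intervals of 0.780 to 0.807 and 0.747 to 0.785). The gain over the 1 to 2 kb class was smaller when only sites with an island were considered (0.811 compared to 0.769). Centred on the outermost start of the gene instead of the middle of the site, the medians were 0.812 and 0.735.

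**Figure D1:**
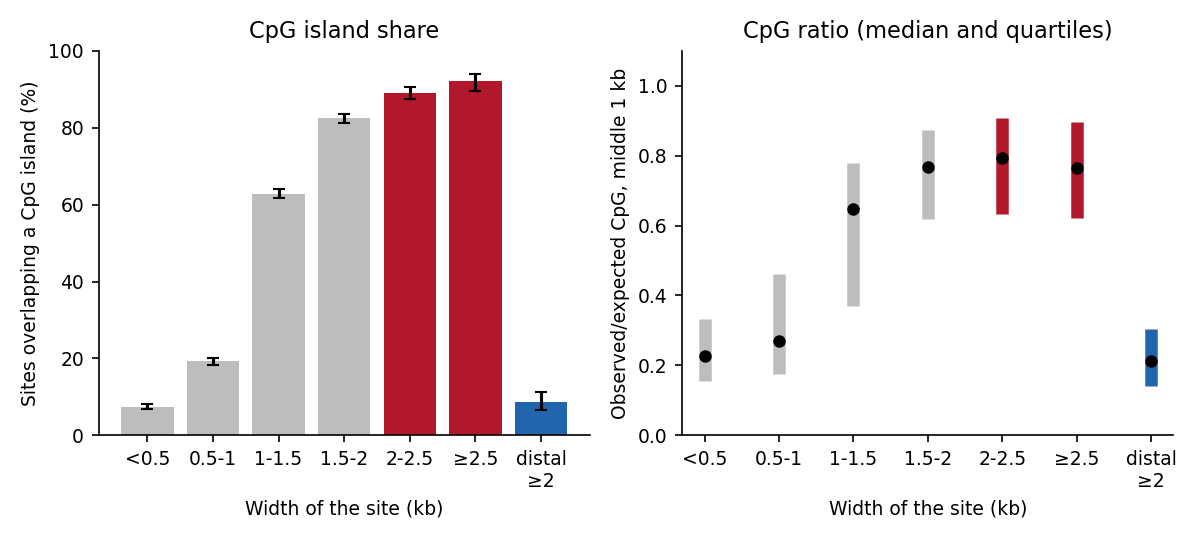
CpG islands and CpG content by width of the site. Left, percentage of sites that overlap a CpG island (bars, with 95% Wilson intervals) by width in kb for 6 classes of promoter sites (red, the broad promoter sites) and for distal sites of 2000 bp or more (blue). Right, median (point) and quartiles (bar) of the ratio of observed to expected CpG in the middle 1 kb. The island share reaches 92.0% in the widest class, whereas the CpG ratio levels off between 0.763 and 0.793 above 2000 bp and equally wide distal sites stay at 0.213.

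The broad sites were not centred on the transcription start. Position was measured for the 1395 sites that contained the outermost 5′ end of exactly 1 protein-coding gene. Their median extent was 778 bp upstream and 1525 bp downstream of this end, so that 66.8% of the width (interval 65.6 to 68.2%) was located downstream. In promoter sites of 1 to 2 kb, the corresponding extents were 527 and 862 bp, and the downstream share was 61.9% (61.6 to 62.3%). The downstream share was higher at broad sites on 18 of 19 chromosomes. At 1 kb downstream of the start, 83.6% of the sites of 2 to 2.5 kb and 90.6% of those of 2500 bp or more still covered the position, compared to 28.2 and 44.0% at 1 kb upstream. The first exon of the longest transcript was passed in 1280 of 1395 sites (91.8%), which then reached into the first intron. The start codon was inside the site in 866 of the 1265 cases in which it could be placed (68.5%), and the complete gene in 11.

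The lean to the downstream side depended on which start was taken as reference, because 78.2% of the broad sites contained 2 or more annotated starts. The outermost end leaves the other starts downstream by construction. With the most downstream start of the gene inside the site as reference, the share was 49.6% at broad sites and 50.3% at sites of 1 to 2 kb, and with the start nearest to the middle it was 54.2 and 53.1%. In the 273 broad sites with a single annotated start, where no such choice exists, it was 66.4% (quartiles 52.3 and 75.6%), compared to 60.5% in 1331 sites of 1 to 2 kb.

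**Figure D2:**
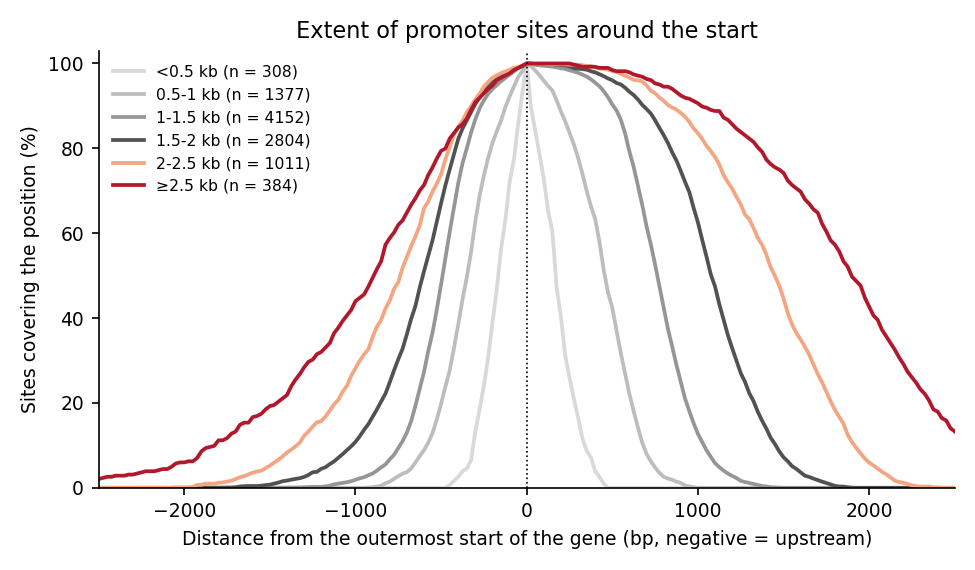
Extent of promoter sites around the outermost start of the gene. The x axis gives the distance from the start in bp (negative values upstream), the y axis the percentage of sites of each class of width that cover the position. The curves of the 2 broad classes (orange and red) extend further downstream than upstream: 44.6 and 74.2% of these sites cover the position 1500 bp downstream, and 5.24 and 19.3% the position 1500 bp upstream.

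A part of the broad sites was arranged in the opposite way. In 304 of 1395 sites (21.8%) more bases were upstream than downstream, among them several of the widest. The site at Ssbp4 had 3373 bp upstream and 779 bp downstream of the outermost end, the site at Efna5 3143 and 845 bp, and the site at Fat4 3006 and 1057 bp. The longest downstream parts were found at Adamts5, a matrix protease (3584 bp, with 84 bp upstream), at Adgrl2, an adhesion receptor (3375 bp, with 272 bp upstream), and at Ubtf (3364 bp). Sites with the larger part upstream more often contained an annotated start on the opposite strand upstream of the gene, 62 of 304 (20.4%, interval 16.3 to 25.3%) compared to 104 of 1091 (9.53%, 7.93 to 11.4%) for the other sites. An opposite-strand start can only be counted where the site covers its position, and longer upstream parts cover more positions.

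The sites extended past their islands. Broad sites with an island extended beyond its outer edges by a median of 1175 bp in total (interval 1143 to 1208 bp), and the islands covered a median of 46.2% of the site. In 1586 of 1791 sites (88.6%) the islands lay completely inside, and in 7 they covered the entire site. Compared to promoter sites of 1 to 2 kb, the islands had a median total length of 1073 bp instead of 630 bp. The sites extended 1175 bp instead of 786 bp beyond them. Members were chosen by width, so that a larger sum of the bases in and beyond the islands follows from the rule. The share of the site covered by islands was 46.2%, compared to 43.4% in the narrower class. Relative to the start, the island reached 239 bp upstream and 813 bp downstream in broad sites (n = 1323), and 125 and 482 bp in the narrower class (n = 5999). The downstream lean was thus shared by site and island. Islands of 2 kb or more in total were found in 164 broad sites (9.16%), compared to 1.41% of the narrower class with an island, and 2 or more separate islands in 140 (7.03%).

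**Figure D3:**
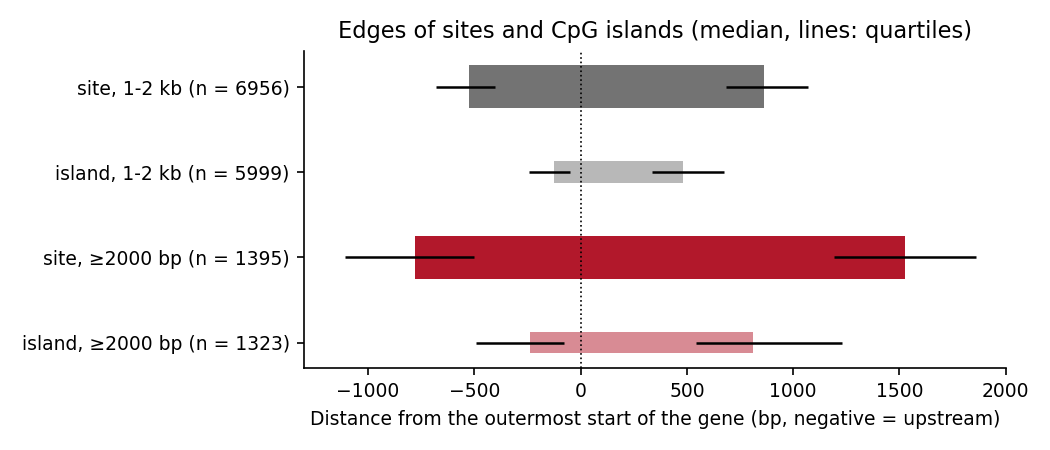
Median edges of promoter sites and of the CpG islands they overlap, relative to the outermost start of the gene (x axis, bp, negative values upstream). Bars run from the upstream to the downstream median, and black lines mark the quartiles of each edge. In sites of 2000 bp or more (red) the island spans 239 bp upstream to 813 bp downstream and the site 778 bp upstream to 1525 bp downstream. Both are wider than in sites of 1 to 2 kb (grey), the site by the rule of selection.

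Broad sites contained a median of 3 annotated starts (quartiles 2 and 5), which were spread over a median of 337 bp. At least 1 protein-coding gene had a start within 1 kb of 1911 sites, and 238 sites reached 2 or more of them (11.9%). This share did not exceed that of promoter sites of 1.5 to 2 kb (12.4%), and divergent gene pairs with starts at most 1 kb apart were at 5.07% compared to 6.25%. Shared promoters were thus not more frequent above 2000 bp than just below. The site covering most genes lay at the histone genes Hist2h2ab, Hist2h2ac and Hist2h2be together with Bola1 (chr3:96219114-96221656, 2543 bp). Among the sites with 3 genes were those at Ddit3, a stress-induced transcription factor, with Mbd6 (3595 bp, where Ddit3 is annotated under 2 identifiers), at Tnfrsf12a, the receptor for TWEAK, with Thoc6 and Hcfc1r1 (3151 bp), at Pfkfb2, Yod1 and Gm29427 (2662 bp) and at Mrps34, Eme2 and Nme3 (2434 bp). Starts of long noncoding RNAs were present at 462 sites (23.2%, interval 21.4 to 25.1%) and of microRNAs at 55 (2.76%, 2.13 to 3.58%). Both shares were close to those of the promoter sites under 2000 bp (21.1 and 2.19%). They were above those of promoter sites of 1 to 2 kb, whose intervals did not overlap theirs (18.7 to 20.2% and 1.61 to 2.09%). At 2500 bp or more the shares were 29.7 and 2.65%. Only 81 of the 1992 broad sites (4.07%) had no protein-coding gene. The share was 6.90% at 1.5 to 2 kb, 11.4% at 1 to 2 kb and 22.3% over all promoter sites under 2000 bp. The 81 sites included the site of 2903 bp at Mir17hg, the host transcript of the miR-17 cluster (chr14:115040053-115042955), whose middle 1 kb had a CpG ratio of 1.04.

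From the view of the genes, 2125 of 20807 protein-coding genes on these chromosomes had a broad promoter site, which is 10.2% of all genes and 14.1% of the 15058 genes with any promoter site. These shares are the background for the gene lists and families below, which were compiled by hand and from gene symbols, with earlier results of these data known, and which were not tested. Some genes belong to several lists, such as Twist2, Klf10 and Dusp7, so that the lists are not independent of each other. Of the 48 lists and families, 28 were above 10.2%. The Wilson interval of 17 lay above both backgrounds, that of 6 below both, and for the remaining 25 the interval included or touched one of them, so that these are not separated from the background. These intervals count all genes of a list, also those without any promoter site, whereas the 14.1% counts only genes with one. Among genes with a promoter site, few remain in 3 of the lists below both. The shares were then 6.25% for keratins (n = 16), 3.85% for clustered protocadherins (n = 26) and 0% for vomeronasal receptors (n = 13).

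The highest shares were found for mesenchymal transcription factors and growth factor signalling, whose intervals overlap. With only the outermost 5′ end of each gene, the order changed. Growth factor signalling (48.7%) and the actin cytoskeleton (46.2%) were then above mesenchymal transcription factors (42.6%). Of 54 mesenchymal transcription factor genes, 29 had a broad promoter site (53.7%, interval 40.6 to 66.3%), 21 only a site of 1 to 2 kb, and 1 none. The widest were at Foxc2 (3168 bp), Runx2, the regulator of bone formation (3008 bp), Twist2 (2937 bp) and Gli3, an effector of Hedgehog signalling (2927 bp). Among transcription factor families, a broad site was found at 5 of 12 T-box genes, 11 of 28 Klf and Sp genes, 15 of 39 nuclear receptors and 14 of 41 Fox genes, with examples such as Tbx15 (2791 bp), Klf13 (3671 bp), the glucocorticoid receptor Nr3c1 (2998 bp) and Foxo3 (3508 bp). By contrast, 3 of 39 Hox genes (7.69%) and 3 of 18 Sox genes (16.7%) had a broad site, and their intervals included 10.2%. Among the Zfp genes, which encode zinc finger proteins, 22 of 358 had one (6.15%, 4.09 to 9.13%), below both backgrounds. Of the 315 Zfp genes with any promoter site this was 6.98%. The share thus differed widely between families of transcription factors.

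Signalling genes showed similar shares. Of 39 genes of growth factor signalling, 20 had a broad site (51.3%), with the insulin-like growth factor receptor Igf1r (3414 bp), Fgfr2 (3197 bp), the adaptor Irs2 (3106 bp) and the phosphatase Dusp7 (2892 bp). Of the Hippo and TGF-beta list, 17 of 40 had one (42.5%), led by the corepressor Tgif2 (3462 bp), the receptor Bmpr2 (3180 bp) and the ligand Tgfb1 (3177 bp). The share was 40.0% in the Wnt and Notch list (16 of 40), where the 3 widest were all at Frizzled receptors, with 3734 bp at Fzd2, 3468 bp at Fzd7 and 3137 bp at Fzd5. Immediate early genes, which respond to growth factors within minutes, had 22 of 57 (38.6%), with Csrnp1 (3256 bp), Klf10 (3045 bp), Ccn2 (2962 bp) and Jun (2953 bp). The actin cytoskeleton list reached 18 of 39 (46.2%), with Vasp (3423 bp), Pfn1 (3224 bp), Actg1 (2928 bp) and Rock2 (2873 bp).

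Regulators of chromatin and of RNA processing mostly had shares above the background. Of 24 genes for histone acetylation and its readers, 12 had a broad site, with Brd2, the acetyltransferase Kat6b (2846 bp) and the corepressor Ncor1 (2761 bp) as examples. Of 51 chromatin remodeler subunits, 15 had one (29.4%, 18.7 to 43.0%), led by Smarca2 (3348 bp) and Arid2 (3308 bp), and of 50 splicing regulators 22 (44.0%), led by Hnrnpl (3267 bp). SET and PR domain methyltransferases had 11 of 36 (30.6%), with Kmt2e (3144 bp) and Nsd2 (2897 bp). For Polycomb subunits, 5 of 28 (17.9%), the interval of 7.88 to 35.6% included both backgrounds. Histone cluster genes reached 25 of 67 (37.3%), but their 25 genes shared 12 sites, and 12 of the genes lay completely inside a site because their median length is only 539 bp. Histone genes have near-identical copies, and reads that map to several of them may have been assigned differently, so that the widths at histone genes are uncertain.

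The genes of the complex that was targeted in these cells were not separated from the background. Of 16 genes for KMT2 core subunits and their partners, 2 had a broad promoter site, Kmt2a with 2667 bp and Kmt2b with 2286 bp (12.5%, interval 3.50 to 36.0%, which includes both 10.2 and 14.1%). Both enzymes contain a domain that binds unmethylated CpG. Kmt2d and Setd1a were just below with 1949 bp each, and the core subunits Wdr5, Ash2l, Dpy30 and Rbbp5 had sites of 1730, 1608, 1513 and 1258 bp. The endogenous Ash2l gene lacked exon 4 in all groups, and the lentiviral fusion is not represented by this promoter.

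Lists for DNA repair, the proteasome, ribosomes and the respiratory chain had shares below 10.2%, although most of their genes have CpG islands. None of 38 DNA repair genes (0%, upper limit of the interval 9.18%) and none of 31 proteasome subunits (upper limit 11.0%) had a broad site, yet 36 and 27 of them had a promoter site of 1 to 2 kb, and 84.2 and 90.3% had an island within 1 kb of the start. Broad sites were found at 3 of 78 mitochondrial ribosomal proteins, 4 of 79 cytosolic ribosomal proteins (Rpl10a, Rpl7, Rpl3 and Rpl38) and 3 of 56 subunits of the respiratory chain (Uqcrh, Cox4i1 and Cox6a1), with intervals that reached up to 10.7, 12.3 and 14.6%. Of these 5 lists only DNA repair lay below both backgrounds, and the intervals of the other 4 included 10.2%. With a threshold of 1500 bp DNA repair changed sides, with 39.5% compared to 30.8% of all genes. For comparison, 72.2% of the mesenchymal transcription factors and 94.9% of the growth factor signalling genes had an island at the start. The length of the islands differed more. In the widest promoter site of each gene, the islands had a median total length of 478 bp for proteasome subunits (n = 29), 508 bp for mitochondrial ribosomal proteins (n = 71), 510 bp for the respiratory chain (n = 50), 675 bp for cytosolic ribosomal proteins (n = 74) and 638 bp for DNA repair (n = 34). The corresponding lengths were 1419 bp for mesenchymal transcription factors (n = 40), 1276 bp for Wnt and Notch (n = 38), 1224 bp for Hippo and TGF-beta (n = 35), 1028 bp for growth factor signalling (n = 38) and 908 bp for the actin cytoskeleton (n = 32). Long islands did not always go with a high share of broad sites. Sox genes had 1139 bp (n = 15) at a share of 16.7%, and Polycomb subunits 924.5 bp (n = 26) at 17.9%. The KMT2 core list had 881 bp (n = 14) at 12.5%. A wider site can overlap more islands, so that length and width are not independent. Families that are known for expression in sensory or epithelial cells were almost absent, with 0 of 1086 olfactory and 0 of 325 vomeronasal receptors (upper limits 0.353 and 1.17%) and 1 of 53 keratins (Krt80, 2260 bp). Most of these genes had no promoter site of any width, namely 1024 olfactory receptors, 312 vomeronasal receptors and 37 keratins. A promoter site was present at only 62, 13 and 16 of them, respectively.

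**Figure D4:**
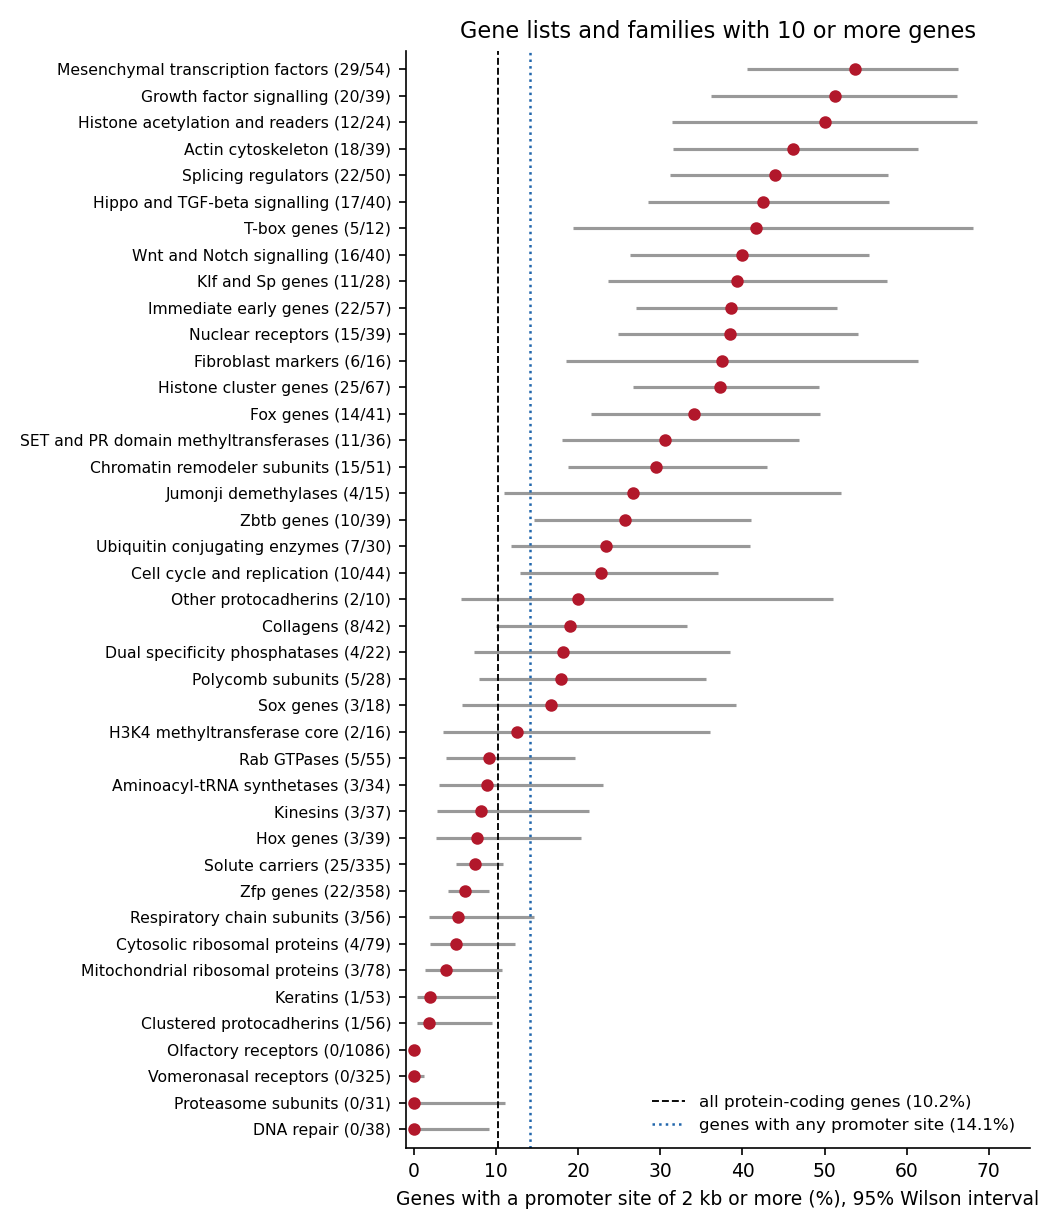
Share of genes with a promoter site of 2 kb or more in the 41 lists and families with at least 10 genes (points, with the number of genes in parentheses), with 95% Wilson intervals (grey lines). The dashed line marks all protein-coding genes (10.2%) and the dotted line genes with any promoter site (14.1%). The points count all genes of a list, also those without a promoter site. Mesenchymal transcription factors (53.7%) and growth factor signalling (51.3%) are at the top, proteasome subunits and DNA repair (0%) at the bottom.

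Markers of cell types were used to check the labelled cells. All 16 fibroblast markers had a promoter site, and at 6 of them it was broad: Lox, a collagen crosslinking enzyme (3150 bp), Twist2 (2937 bp), Pdgfrb (2865 bp), Col1a2 (2696 bp), Twist1 (2423 bp) and Col3a1 (2113 bp). Widths at other defining markers were smaller, with 1861 bp at Vim and 659 bp at Col1a1. Among 45 markers of blood, epithelium, neurons, muscle, endothelium, pluripotent cells and liver, 2 had a broad site, Ovol1 (2277 bp) and Erg (2245 bp), and 13 had no promoter site, including Ptprc, Spi1, Cd3e, Myod1, Myf5, Myog, Nanog, Alb and Hnf4a. The other markers of this set had narrower promoter sites, among them all 7 of neurons. The widest of these were at Foxa3 (1911 bp) and Tek (1906 bp). Several fibroblast markers had narrower sites than those, such as Fap (1088 bp) and Postn (647 bp). All of these are sites of accessibility, and expression was not analysed here.

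Genes with a broad promoter site were longer than those with narrower sites. Their median length was 35383 bp (interval 32838 to 38457 bp), compared to 24492 bp for genes whose widest site had 1 to 2 kb and 16061 bp for genes with narrower sites. The difference was larger for the first intron, with medians of 6991, 3636 and 2661 bp, respectively. It remained when only genes with an island at the start were considered (6911 compared to 3697 bp). The number of annotated transcripts had a median of 5 in each of the first 2 groups. A total of 39 genes had 2 separate broad sites and none had more. By summed width, these were led by Zmiz1, whose second site (2329 bp, chr14:25606369-25608697) was located inside the gene, and by Dmpk, the kinase gene of myotonic dystrophy (2388 and 3665 bp). They were followed by Asap1 (3160 and 2675 bp), the Hedgehog receptor Ptch1 (3524 and 2138 bp), Mcat (2184 and 3425 bp) and the tumor suppressor Dlc1 (3548 and 2051 bp).

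The 201 broad sites without a CpG island (10.1% of members) differed from the others in several aspects. Their middle 1 kb had a median CpG ratio of 0.337 and a GC content of 50.0%, compared to 0.811 and 65.1% in sites with an island. No protein-coding gene was nearby in 47 of them (23.4%, interval 18.1 to 29.7%), compared to 34 of 1791 (1.90%). The widest were at Mcat and Tspo, the mitochondrial translocator protein (3425 bp), at Smim3 (3369 bp), at Ang and Rnase4, which are transcribed from shared promoters (3223 bp), and at the noncoding genes Gm44734 (2935 bp) and Gm14005 (2868 bp). Of the 6 fibroblast markers with a broad site, Pdgfrb, Col1a2 and Col3a1 had no island in it, and of the 8 collagens with a broad site, which include Col1a2 and Col3a1, 3 had none. None of the 22 immediate early genes, 22 splicing regulators and 15 chromatin remodelers with a broad site lacked an island. The same held for other lists, such as the 16 Wnt and Notch genes and the 14 Fox genes with a broad site. Since only 10.1% of all members lack an island, a count of 0 among so few genes does not set these lists apart. The median downstream share of sites without an island was 72.1%. Its interval (59.3 to 77.5%, n = 72) included the 66.7% of sites with an island.

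The sequence at the starts was searched for exact matches to short consensus words on both strands. In the 200 bp at the outermost start of the gene (150 bp before to 50 bp after it), the EGR words GCGGGGGCG and GCGTGGGCG were found in 9.13% of the 2125 genes with a broad site (interval 7.98 to 10.4%), 4.91% of the genes with sites of 1 to 2 kb (4.50 to 5.35%) and 5.01% of all genes with a promoter site. EGR factors are themselves immediate early proteins. The SP/KLF word GGGCGGG was found in 47.0, 40.0 and 37.7% of these groups. Since both are rich in GC and can share bases, their matches are not independent of each other or of the CpG content. When only genes with an island at the start were considered, the shares were 10.1 and 5.80% for EGR and 50.9 and 45.6% for SP/KLF. The opposite order was found for the ETS word CCGGAAG, which also contains a CpG. It was present in 7.81% (6.75 to 9.03%) of genes with a broad site and 15.2% (14.5 to 15.9%) in the 1 to 2 kb class. The share was 12.5% over all genes with a promoter site, and 8.31 compared to 17.2% for genes with an island. The words that contain CpG thus did not all follow the CpG content. For the NRF1 word GCGCATGC the shares were 3.44, 4.61 and 3.92%. The NFY words, CCAAT followed by CA, CG, GA or GG, had overlapping intervals in the broad (15.9 to 19.1%) and the 1 to 2 kb class (18.3 to 19.8%; all genes with a promoter site 17.4 to 18.6%), and so had the YY1 word AAGATGGCG (2.16 and 2.25%, with 1.95% of all genes with a promoter site). A match does not show binding, and these words miss weaker binding sequences. The outermost start can also lie away from the broad site of the gene. Of all genes, 9.18% had a broad site at this start, compared to 10.2% at any start.

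The same words were searched in the middle 200 bp of the sites. The middle does not lie at the same distance from the start in each class, and 61.2% of promoter sites under 1000 bp contain no start. EGR words were present in 4.82% of broad promoter sites, 3.21% of sites of 1 to 2 kb, 0.640% of narrower ones and 2.13% of all promoter sites. The ETS word was at 2.86, 8.27, 2.20 and 5.02%, respectively. The AP-1 words TGACTCA and TGAGTCA, bound by Fos and Jun proteins, declined with width, from 11.0% in promoter sites under 1000 bp to 3.95% at 1 to 2 kb and 1.41% at broad sites (7.05% over all promoter sites). Among sites with an island, however, the AP-1 shares were 1.40% (1.17 to 1.68%) at 1 to 2 kb and 1.12% (0.724 to 1.72%) at broad sites, with overlapping intervals, and over the whole width there were 0.123 and 0.144 matches per kb. The 12-letter CTCF consensus was at 3.50, 0.384 and 0.151% in the 3 classes (1.82% over all). At broad sites this was 3 of 1992, and the interval (0.0512 to 0.442%) overlapped that of the 1 to 2 kb class (0.287 to 0.513%). Among sites with an island, the shares were 0.219% (0.139 to 0.346%) at 1 to 2 kb and 0.112% (2 of 1791, 0.0306 to 0.406%) at broad sites. Over the whole width of sites with an island there were 0.0160 and 0.0162 CTCF matches per kb. In the 200 bp at the outermost start, CTCF was at 0.633% (0.496 to 0.808%) for genes of the 1 to 2 kb class. For genes with a broad site it was at 0.141% (0.0480 to 0.414%), and over all genes with a promoter site at 0.591%. The class intervals did not overlap, but those of genes with an island did (0.455 to 0.794% and 0.0543 to 0.469%). AP-1 had overlapping intervals at the start (2.1 to 2.7% and 1.4 to 2.6%). Equally wide distal sites had an AP-1 word in the middle in 6.22% of cases. Over the whole width, an AP-1 word was present in 49.3% of the broad promoter sites without an island and in 27.1% of those with an island, while SP/KLF showed the reverse (43.3 and 91.7%).

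**Figure D5:**
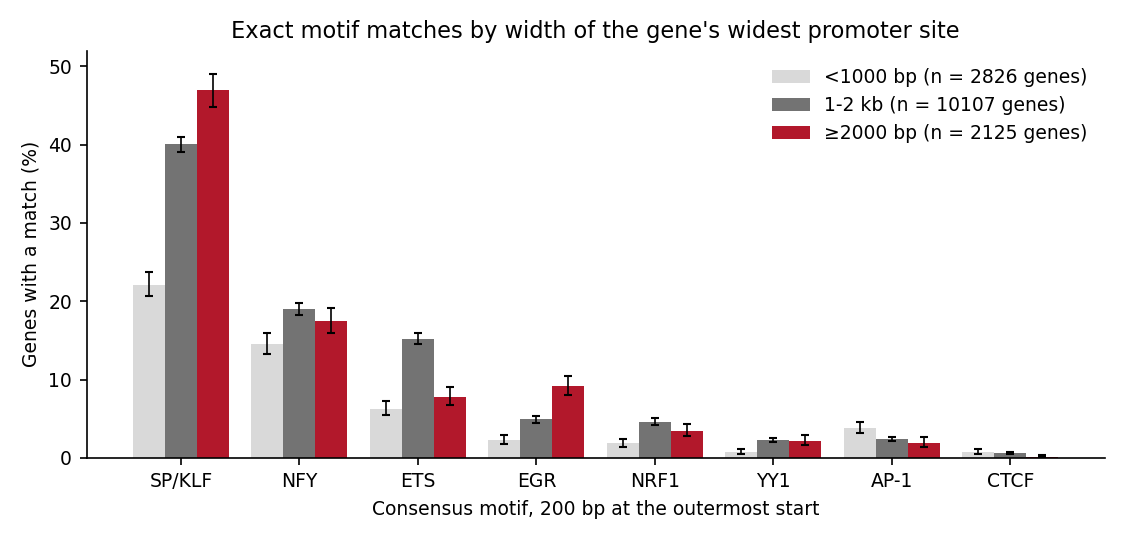
Exact consensus matches in the 200 bp at the outermost start of protein-coding genes. Bars give the percentage of genes with a match and 95% Wilson intervals, grouped by the width of the widest promoter site of the gene (light grey under 1000 bp, dark grey 1 to 2 kb, red 2000 bp or more). EGR (9.13%) and SP/KLF (47.0%) are highest for genes with broad sites, ETS (15.2%) for genes with sites of 1 to 2 kb.

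The surroundings of broad promoter sites were compared with those of narrower classes. The next accessible site was at a median distance of 5167 bp, compared to 4960 bp for promoter sites of 1 to 2 kb and 2381 bp for those under 1000 bp, and a median of 10 other sites was located within 50 kb, compared to 9 and 10. Another site within 1 kb was present in 13.7, 15.4 and 31.3% of cases, so that broad sites were close to the 1 to 2 kb class and the narrowest sites differed from both. By chromosome, broad sites made up 6.22 to 9.75% of the promoter sites (mean 7.85 ± 1.06%, SD over 19 chromosomes), with the lowest share on chromosome 7 and the highest on chromosome 19.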

How the data were processed

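The authors' deposited file was a list of positions, with the unit given as other, namely the chromosome, start and end of each accessible site and no measured value. According to their methods, reads were trimmed (Trim Galore) and mapped to mm10 (BWA), unusable reads were removed following ENCODE, replicates were merged and narrow peaks were called with MACS. The submitters' processing notes also name SAMtools, deepTools and DESeq2. Versions, the MACS threshold, any shift for the transposase and the joining of sites are not given in the sources used here, and each of these, like depth, could change the width of a site.

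Starts were read as counted from 0 and printed from 1, and 0 sites ended beyond their chromosome. Transcript starts (125895) and genes came from GENCODE M21 and sequences from the RefSeq copy of GRCm38.p6. CpG islands were computed outside soft-masked repeats, scoring 17 for a CpG and -1 for other bases, and kept from 200 bp on if GC exceeded 0.5 and the CpG ratio (observed over expected) 0.6. Shares carry 95% Wilson intervals and medians 95% intervals from order statistics. The members and the gene lists were chosen with earlier results of these data known. Named are the 10 widest sites, the 5 widest without an island, the 5 covering most protein-coding genes, 3 sites nearest to 2000 bp on each side, up to 4 genes with the widest sites of each list or family, up to 6 genes with 2 broad sites by summed width, and KMT2 core genes with a broad site. Other features singled out, such as narrower sites of marker and KMT2 genes, sites with the longest upstream or downstream part and Mir17hg, were chosen after their values were seen. Alternatives covered windows, widths, islands, reference starts and motif windows. The computations were tested on simulated data and used Python 3.11.15, NumPy 2.4.6, pandas 2.3.3, Numba 0.67.0 and Matplotlib 3.10.9.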

Additional observations from a re-analysis of the deposited data

Results flagged for a closer look

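The broad promoter sites were defined on chromosomes 1 to 19, and sites of the same width elsewhere in the list enter no comparison. On chromosome X, 54 of 3580 sites spanned 2 kb or more. On chromosome Y, scaffolds and patches, this was the case for 14 of 261 sites. Both are counts of the listed sites, without a control level, and they stand out only because they belong to data not used above.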

How the results depend on the processing

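No paired analysis was possible because values per library are not part of the positions used here. The number of 1992 broad promoter sites was 1974 with a window of 500 bp, 1865 with starts of protein-coding transcripts, 2024 with sites at most 100 bp apart merged and 1993 with RefSeq starts, an alternative chosen after seeing the data. By construction it was 6283 for a threshold of 1500 bp and 528 for 2500 bp. The island share moved to 77.0% with stricter islands and 86.9% with islands within 500 bp of the middle. The CpG ratio was 0.714 over the whole site, 0.812 around the start and 0.811 for sites with an island. The downstream share was 54.2% with the start nearest to the middle, 49.6% with the most downstream start and 68.8% for sites of 2500 bp or more. The share of genes with a broad site was 9.18% for the outermost 5′ end and 30.8% at 1500 bp. Within 100 kb there were 20 neighbouring sites. Matches per kb in the whole site, instead of its middle 200 bp, were 0.188 for EGR (main value 0.259), 0.161 for AP-1 (0.0703) and 1.45 for SP/KLF (1.87). At the starts, a window chosen after seeing the data, they were 0.534 for EGR, 0.254 for NRF1, 4.28 for SP/KLF, 0.457 for ETS, 1.07 for NFY and 0.108 for YY1. The cause of these shifts was not tested beyond the construction of the alternatives. Of the 48 gene lists, 47 stayed within their interval with the outermost 5′ end (all but Hox genes, at 2.56%) and 14 with a threshold of 1500 bp, where the background rises too. DNA repair, at 0% for 2 kb, was at 39.5% for 1500 bp, above the background of 30.8%, and aminoacyl-tRNA synthetases, solute carriers, kinesins and Rab genes also passed from below to above, whereas epithelial markers passed from above to below. Depth is unknown and limits where the edge of a site is called.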
